A study of Mus musculus with 8 samples.

Results

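A set of 35 genes of glucose and lactate transport, glycolysis, pyruvate entry into mitochondria and the hypoxia-inducible factor (HIF) pathway was followed in 2 populations of regulatory T cells (Tregs). The set was defined by a list of gene symbols, chosen with earlier results of these data known. All 35 were found among the 47069 Ensembl genes present in both deposited expression tables. RNA was sequenced from Tregs sorted from lymph nodes of C57BL/6 mice, 6 to 8 weeks old, that were all offspring of 35EbiT and Blimp1-GFP KI reporter lines, the latter with GFP knocked in to mark cells that express Blimp1 (symbol Prdm1). Sorted Ebi3-Treg cells were CD4+CD25+CD62Llow Thy1.1+Blimp1-, and Blimp1-Treg cells were CD4+CD25+CD62Llow Thy1.1-Blimp1+. Each population had 4 libraries, numbered 1 to 4, and numbers 1 and 2 of both populations stood in the first table and numbers 3 and 4 in the second. Values were FPKM (fragments per kilobase of transcript and per mega of mapped fragments), which scale a gene's reads to its length. No label names the animal behind a library, so the p-values reflect only how these samples vary, and that variation may be technical.

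Glycolysis splits glucose into pyruvate in the cytosol, with a small yield of ATP. Pyruvate is then either reduced to lactate by lactate dehydrogenase and exported by monocarboxylate transporters, or carried into mitochondria and converted to acetyl-CoA by pyruvate dehydrogenase, which pyruvate dehydrogenase kinases switch off. HIF-1, a dimer of Hif1a and Arnt, induces many of these genes when oxygen is low, while prolyl hydroxylases of the Egln family and the ubiquitin ligase component Vhl mark Hif1a for degradation when oxygen is present. In T cells, Hif1a and glycolysis are known from activated effector cells, and Hif1a is also controlled by antigen receptor and cytokine signals.

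Depth was lowest in Ebi3-Treg 3, at 13.3 M fragments (M stands for mega), and highest in Blimp1-Treg 1, at 31.2 M. At these depths 1 read in a transcript of 1 kb equals 0.0320 to 0.0751 FPKM. Foxp3, the lineage factor of Tregs, was present in every library (292 ± 90.0 FPKM in Ebi3-Treg and 313 ± 95.6 in Blimp1-Treg, SD, n = 4). Ebi3 stood at 29.6 ± 11.7 against 7.67 ± 2.84 FPKM and Prdm1 at 3.31 ± 1.0 against 94.2 ± 29.6 FPKM, in the direction of the labels. Both libraries numbered 2 stood apart from the others. For 52% of all genes tested, and for 14 of the 35 genes of the set (40%), they were the 2 highest or the 2 lowest of all 8 libraries. Both libraries numbered 1 held the most B cell marker RNA, with a summed level of 266 and 183 FPKM over 9 markers, against 32.9 to 72.7 FPKM in the other 6. All 35 genes passed the filter on low values, which asked for 1 FPKM or more in 4 or more libraries and kept 12273 genes. Log2 fold changes give Ebi3-Treg relative to Blimp1-Treg after log2(FPKM + 1), with table as a covariate, and adjusted p-values are those of limma with Benjamini-Hochberg adjustment over all 12273 genes. A gene was called changed at an adjusted p under 0.05.

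Between the populations, 2 genes of the set were higher in Ebi3-Treg, Eno3 and Ldhb, and 3 were lower, the lactate exporter Slc16a3, the HIF subunit Hif1a and the prolyl hydroxylase Egln3. These 5 of 35 genes (14.3%) compare with 6.29% of all genes tested that were called in either direction, 3.37% higher and 2.93% lower. Because the set was chosen with earlier results known, this comparison is a description and not a test. The other 30 did not pass the test. In limma 12 of the 35 had an unadjusted p under 0.05, as had 2282 of all 12273 genes tested. The median log2 fold change of the set was -0.0008, with 17 genes above 0 and 18 below, while the median over all genes tested was 0.07. In 8 of the 35 (22.9%) the 4 libraries of each population did not overlap, against 11.1% of all genes tested (6.63% higher, 4.5% lower). Ebi3-Treg was above Blimp1-Treg in all libraries for Hk2, Eno3, Ldhb and Pdha1, and below for Pkm, Slc16a3, Hif1a and Egln3. In a bulk sample, fewer cells that express a gene and less of its RNA per cell cannot be told apart.

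**Figure D1:**
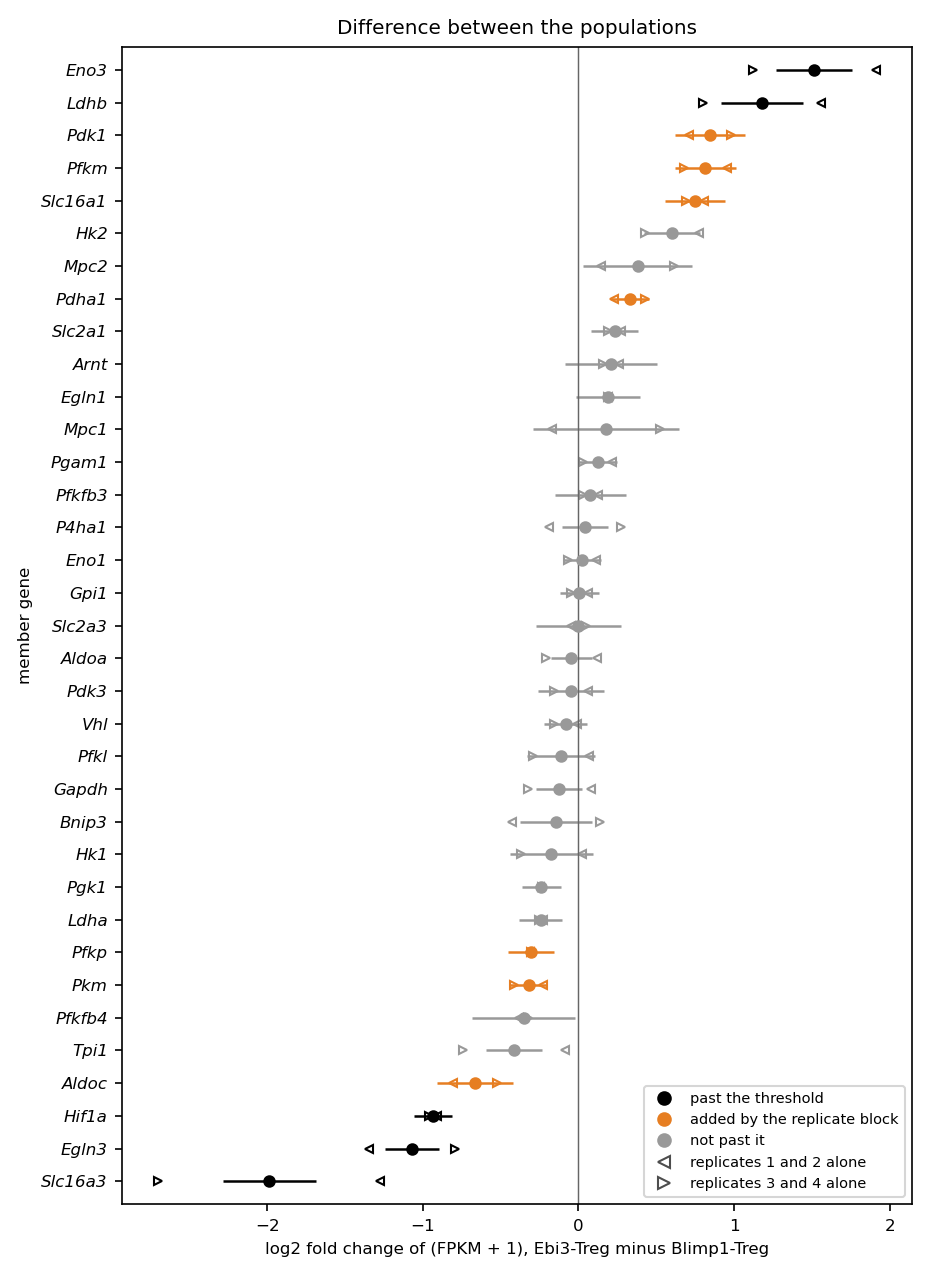
Log2 fold change (x axis, Ebi3-Treg relative to Blimp1-Treg after log2(FPKM + 1)) of each of the 35 genes (y axis), ordered by size, with bars of 1 SE from limma and open triangles for each table alone. The 5 called genes are black, Eno3 and Ldhb at the top and Slc16a3, Hif1a and Egln3 at the bottom, and the 7 genes that the replicate block added are orange.

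Deviations from the population mean correlated across genes between same-numbered libraries (r = 0.62, 0.89, 0.53 and 0.54 for numbers 1 to 4). The fit was therefore repeated with the replicate number as a block. In the second table crossed numbers correlated at 0.56 and 0.61, so the pairs of numbers 3 and 4 are not set by the data. The deviations also keep any difference between the tables, and the labels name no pairs. With the block 6 genes of the set were higher and 6 lower (34.3% of 35), against 22.4% of all genes tested (13.5% higher, 8.94% lower). All 5 calls remained, and the blocked fit added Pfkm, Slc16a1, Pdk1 and Pdha1 as higher and Pfkp, Aldoc and Pkm as lower in Ebi3-Treg. Within the first table alone none of the 35 was called, as was none of all genes tested (0%, though 707 genes had an unadjusted p under 0.05 in limma). Within the second table alone 4 were higher and 6 lower (28.6% of 35), against 11% of all genes (5.51% higher, 5.47% lower). The contrast had the same sign in both tables for 24 of the 35, and the same count over all genes tested was not computed. No gene of the set, and 0% of all genes tested, passed the interaction test of population by table in limma, where 203 of all genes had an unadjusted p under 0.05 (with the block 13 genes passed, 0.106%, none of the set).

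Promoters of the 5 called genes are shown because HIF-1 binds DNA at sites whose core reads ACGTG or GCGTG. Each line is the stretch of 250 bases before the annotated start in RefSeq (GRCm38.p6), 5′ to 3′ on the strand of the gene, and capitals mark either core on either strand. They lie at chr11:120948817-120949066 (plus strand), chr12:73907617-73907866 (plus), chr12:54203875-54204124 (minus), chr11:70656926-70657175 (plus) and chr6:142507958-142508207 (minus).
Slc16a3: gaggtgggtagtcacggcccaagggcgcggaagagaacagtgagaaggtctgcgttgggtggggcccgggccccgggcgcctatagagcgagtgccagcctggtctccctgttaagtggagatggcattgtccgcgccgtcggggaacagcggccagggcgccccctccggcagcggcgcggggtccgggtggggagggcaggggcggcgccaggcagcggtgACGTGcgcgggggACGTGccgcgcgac
Hif1a: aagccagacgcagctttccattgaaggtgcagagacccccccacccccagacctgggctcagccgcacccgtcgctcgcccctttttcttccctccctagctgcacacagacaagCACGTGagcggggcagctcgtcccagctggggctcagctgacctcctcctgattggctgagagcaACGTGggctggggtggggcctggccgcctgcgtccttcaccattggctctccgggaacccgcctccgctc
Egln3: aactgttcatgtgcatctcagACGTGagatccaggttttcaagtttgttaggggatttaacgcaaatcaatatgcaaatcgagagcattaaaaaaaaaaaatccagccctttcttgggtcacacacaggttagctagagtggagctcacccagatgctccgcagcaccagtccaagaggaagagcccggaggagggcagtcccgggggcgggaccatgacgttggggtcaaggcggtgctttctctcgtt
Eno3: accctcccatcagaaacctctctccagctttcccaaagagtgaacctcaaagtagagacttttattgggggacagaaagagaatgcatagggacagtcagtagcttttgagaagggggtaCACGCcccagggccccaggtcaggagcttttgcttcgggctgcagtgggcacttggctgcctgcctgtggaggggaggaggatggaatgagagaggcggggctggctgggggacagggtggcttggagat
Ldhb: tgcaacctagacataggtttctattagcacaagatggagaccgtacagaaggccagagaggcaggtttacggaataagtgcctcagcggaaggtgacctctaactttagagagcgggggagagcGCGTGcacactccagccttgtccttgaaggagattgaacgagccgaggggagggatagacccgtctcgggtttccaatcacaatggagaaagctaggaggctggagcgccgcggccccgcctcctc
Slc16a3 held 2 ACGTG cores close to its start, beginning 27 and 14 bases before it. Hif1a held 3 matches, of which the pair 135 and 134 bases before the start is the palindrome CACGTG read on both strands, and the other lies at 70 bases. Egln3 held 1 ACGTG at 229 bases, while Eno3 and Ldhb each held 1 GCGTG, at 130 and 126 bases. For Hif1a, Egln3 and Eno3 the bases just after the RefSeq start were found in no transcript of the gene in the GENCODE annotation. In the Slc16a3 stretch 14 bases lay in GENCODE exons. Distances therefore hold for the RefSeq starts alone. Promoters were found for 34 of the 35 genes, and 31 of these 34 (91.2%) held either core in at least 1 promoter. The share was 62% among 8840 genes tested with a promoter and 41.5% among all 27025 genes with one. The median GC content was 62.4% in promoters of the set, 59.6% in those of genes tested and 52.4% in all promoters, and both cores contain CpG. A match of these letters is a description of the sequence, and the matches stand beside genes that were higher, lower and not called alike.

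The 2 glucose transporters showed no called difference. Slc2a1, the ubiquitous transporter GLUT1, was at 48.1 ± 2.85 FPKM in Ebi3-Treg against 41.1 ± 6.85 in Blimp1-Treg. The log2 fold change was 0.23, with a 95% interval of -0.12 to 0.59 and an adjusted p of 0.515 in limma. Slc2a3, the high-affinity transporter GLUT3, was at 103 ± 43.6 and 101 ± 40.2 FPKM, with an interval of -0.63 to 0.63. The libraries numbered 2 were the lowest, at 43.9 and 51.1 FPKM, while the other 6 lay between 89.2 and 145 FPKM.

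Among the enzymes of the hexose steps, which trap glucose and split it into triose phosphates, none of 8 was called. Hexokinase was almost wholly Hk1, with 224 ± 59.7 FPKM in Ebi3-Treg and 262 ± 97.7 in Blimp1-Treg, a log2 fold change of -0.18 (95% interval -0.79 to 0.44). It was 0.02 in the first table and -0.37 in the second, where Hk1 was called lower in the fit of that table alone (limma adjusted p = 0.0369). Hk2, the inducible hexokinase of activated and tumour cells, was the lowest gene of the set and ranked 10969 of 12273. It measured 3.44, 2.89, 1.85 and 1.62 FPKM in Ebi3-Treg 1 to 4 and 1.25, 1.61, 0.819 and 1.27 in Blimp1-Treg 1 to 4. The groups did not overlap, but only by a margin in the third digit, and the log2 fold change of 0.60 (SE 0.18) did not pass in limma (adjusted p = 0.108, or 0.0603 with the replicate block). Gpi1, which isomerises glucose 6-phosphate, was at 206 ± 13.5 and 205 ± 20.3 FPKM, and the muscle-type aldolase Aldoa, the main aldolase here, at 430 ± 28.4 and 446 ± 57.1 FPKM. Their 95% intervals on the log2 scale were -0.29 to 0.30 and -0.36 to 0.26.

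Phosphofructokinase, the committed step of glycolysis, is built from 3 subunit genes that differed in level and direction. Pfkp, the platelet type, was at 142 ± 19.0 FPKM in Ebi3-Treg and 175 ± 19.1 in Blimp1-Treg, and Pfkl, the liver type, at 98.4 ± 15.6 and 110 ± 32.9. Pfkm, the muscle type and the least abundant, measured 8.03, 5.31, 10.0 and 9.33 FPKM in Ebi3-Treg 1 to 4 and 3.66, 2.27, 5.39 and 5.97 in Blimp1-Treg 1 to 4. Each Ebi3-Treg library exceeded the Blimp1-Treg library of its number, and only the lowest Ebi3-Treg value reached into the Blimp1-Treg range. Pfkm had a log2 fold change of 0.81 (SE 0.20) with an adjusted p of 0.0521 in limma, and 0.00557 with the replicate block. Pfkp had a log2 fold change of -0.31 (SE 0.15), with adjusted p = 0.333, and 0.0230 with the block. Exons of Pfkp share 748 bases with Pitrm1 on the other strand, a gene at 20.2 FPKM, and whether counting used strand is not known here. The brain-type aldolase Aldoc was low, at 7.89 ± 1.80 against 13.3 ± 4.23 FPKM, with a log2 fold change of -0.67 (SE 0.24; limma adjusted p = 0.179, or 0.0181 with the block).

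The bifunctional regulators Pfkfb3 and Pfkfb4, which make and remove fructose 2,6-bisphosphate, the activator of phosphofructokinase, were low and not called. Pfkfb3 was at 11.9 ± 3.04 and 11.2 ± 2.67 FPKM (95% interval of the log2 fold change -0.45 to 0.60), and Pfkfb4 at 4.57 ± 2.33 and 6.09 ± 2.63 FPKM (-1.12 to 0.42). Both libraries numbered 2 were the lowest of their population for both genes.

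The triose steps, which carry glyceraldehyde 3-phosphate to pyruvate and yield ATP and NADH, held the most abundant RNAs of the set. Gapdh, the NADH-producing dehydrogenase, ranked 34 of 12273 genes and the enolase Eno1 ranked 51. Gapdh was at 1266 ± 327 FPKM in Ebi3-Treg and 1351 ± 127 in Blimp1-Treg, a log2 fold change of -0.12 with a 95% interval of -0.47 to 0.22. Eno1 was at 1042 ± 140 and 1020 ± 57.4 FPKM (log2 fold change 0.02, interval -0.26 to 0.31). The phosphoglycerate kinase Pgk1 (114 ± 16.6 and 134 ± 20.7 FPKM) and the mutase Pgam1 (104 ± 21.7 and 94.3 ± 12.1 FPKM) had log2 fold changes of -0.24 and 0.12, neither called. Reads could be shared with processed pseudogenes. The 74 near-identical copies of Gapdh in the tables summed to 1.29% of its FPKM and the copy of Pgam1 to 1.30%. The counting mode is not known, and reads dropped for matching several places would not show in these sums.

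Eno3 (ENSMUSG00000060600), the muscle-type enolase that catalyses the same reaction as Eno1, rose in Ebi3-Treg relative to Blimp1-Treg. It measured 25.5, 46.6, 25.7 and 28.3 FPKM in Ebi3-Treg 1 to 4 and 9.02, 7.90, 13.0 and 10.9 FPKM in Blimp1-Treg 1 to 4. Every Ebi3-Treg library lay above every Blimp1-Treg library, and Ebi3-Treg 2 stood well above the other Ebi3-Treg libraries. The means of 31.5 ± 10.1 and 10.2 ± 2.21 FPKM (SD, n = 4) differed 3.09-fold, and the log2 fold change was 1.52 (SE 0.24; limma adjusted p = 0.0109). It was 1.91 in the first table and 1.12 in the second, and Eno3 stayed called without each of the 8 libraries in turn. Relative to Eno1 it remained minor, at 0.0239 to 0.0379 of the Eno1 FPKM in Ebi3-Treg libraries and 0.00765 to 0.0127 in Blimp1-Treg libraries, 2 ranges that did not overlap.

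Pkm and Tpi1, like Hk1, were not called over both tables and were called lower in the fit of the second table alone (limma adjusted p = 0.0253 and 0.0182). Pkm, pyruvate kinase, was at 478, 505, 477 and 484 FPKM in Ebi3-Treg 1 to 4 and 621, 535, 647 and 633 FPKM in Blimp1-Treg 1 to 4. The Ebi3-Treg libraries lay close together and all below the Blimp1-Treg libraries, of which number 2 was the lowest. The log2 fold change of -0.32 (SE 0.12) did not pass in limma (adjusted p = 0.183), and did so with the replicate block (adjusted p = 0.0435). Tpi1, triose phosphate isomerase, was at 189 ± 44.8 and 249 ± 33.1 FPKM, with log2 fold changes of -0.09 in the first table and -0.74 in the second, and an adjusted p of 0.272 over both in limma.

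**Figure D2:**
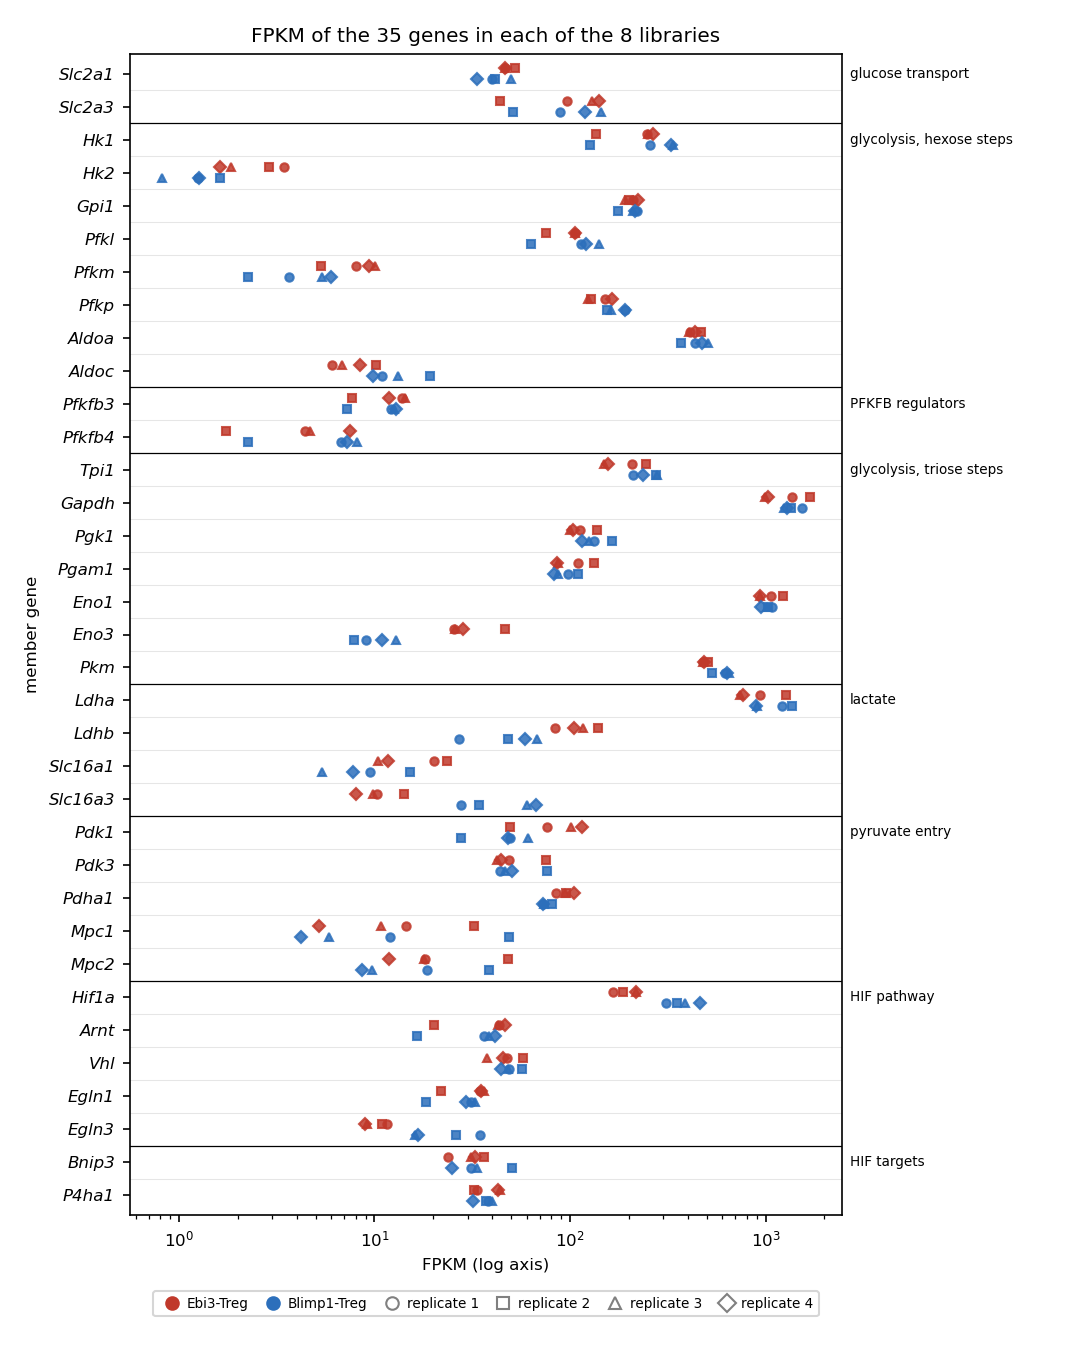
FPKM of the 35 genes in each of the 8 libraries on a log axis, grouped by role, with Ebi3-Treg in red, Blimp1-Treg in blue and 1 symbol per replicate number. Gapdh, Eno1 and Ldha sit furthest to the right in both populations and Hk2 near 1 to 3 FPKM, while Slc16a3, Hif1a and Eno3 separate by population.

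Of the 13 genes with a mean of at least 100 FPKM over the 8 libraries, a level chosen after the values were seen, Hif1a alone was called. For the other 12, among them Gapdh, Eno1, Ldha, Pkm and Aldoa, the log2 fold changes ran from -0.42 to 0.02 and their 95% intervals from -0.83 at the lowest to 0.63 at the highest. Of the 22 genes under 100 FPKM, 4 were called. Over all genes tested 6.29% were called, and their shares above and below this level were not computed. Whether calls go with level was therefore not tested.

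Lactate handling, with 4 genes, held 2 of the 5 calls, 1 higher and 1 lower, against 3.37% and 2.93% of all genes tested. These 4 genes too were listed with earlier results of these data known. Ldha, the muscle-type subunit of lactate dehydrogenase known for converting pyruvate to lactate, was by far the main subunit, at 930 ± 245 FPKM in Ebi3-Treg and 1092 ± 232 in Blimp1-Treg (log2 fold change -0.24, SE 0.14; limma adjusted p = 0.429). Ldhb (ENSMUSG00000030246), the heart-type subunit known for favouring lactate oxidation, measured 83.7, 139, 117 and 105 FPKM in Ebi3-Treg 1 to 4 and 27.0, 47.9, 68.2 and 58.7 FPKM in Blimp1-Treg 1 to 4. All Ebi3-Treg libraries were above all Blimp1-Treg libraries. Ldhb rose in Ebi3-Treg with a log2 fold change of 1.18 (SE 0.26; limma adjusted p = 0.0373), from means of 111 ± 23.2 and 50.4 ± 17.7 FPKM. This call did not hold when any single library was left out (adjusted p = 0.0514 to 0.113), while the log2 fold change stayed between 0.94 and 1.30, and the adjusted p was 0.00342 with the replicate block. The ratio of Ldhb to Ldha was 0.0889, 0.109, 0.158 and 0.137 in Ebi3-Treg 1 to 4 and 0.0223, 0.0352, 0.0750 and 0.0659 in Blimp1-Treg 1 to 4, without overlap.

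Slc16a3 (ENSMUSG00000025161) encodes MCT4, the monocarboxylate transporter known for exporting lactate from glycolytic cells, and it had the largest fold change of the set. It measured 10.3, 14.2, 9.80 and 8.05 FPKM in Ebi3-Treg 1 to 4 and 27.6, 34.4, 60.0 and 66.6 FPKM in Blimp1-Treg 1 to 4. The lowest Blimp1-Treg library lay above the highest Ebi3-Treg library, and the Blimp1-Treg libraries of the second table lay above those of the first. The mean was 4.44-fold lower in Ebi3-Treg (10.6 ± 2.61 against 47.1 ± 19.1 FPKM), and the log2 fold change was -1.99 (SE 0.30; limma adjusted p = 0.00811). Without each library in turn the call stayed, with adjusted p = 0.0095 to 0.0384. The log2 fold change was -1.28 in the first table and -2.70 in the second. That difference of -1.42 (SE 0.35) had an unadjusted p of 0.00496 and an adjusted p of 1 in limma, and 0.117 with the replicate block.

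Slc16a1 encodes MCT1, which carries lactate in either direction and is known for high affinity. It measured 20.2, 23.6, 10.4 and 11.8 FPKM in Ebi3-Treg 1 to 4 and 9.49, 15.2, 5.40 and 7.75 FPKM in Blimp1-Treg 1 to 4. Each Ebi3-Treg library exceeded the Blimp1-Treg library of its number, and the groups overlapped across tables. Its log2 fold change of 0.75 (SE 0.19) had an adjusted p of 0.0657 in limma, and of 0.00555 with the block. The transporter pair thus stood in opposite order in the 2 populations: Slc16a1 was 1.06 to 1.95 times the FPKM of Slc16a3 in the Ebi3-Treg libraries and 0.0900 to 0.444 times in the Blimp1-Treg libraries.

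**Figure D3:**
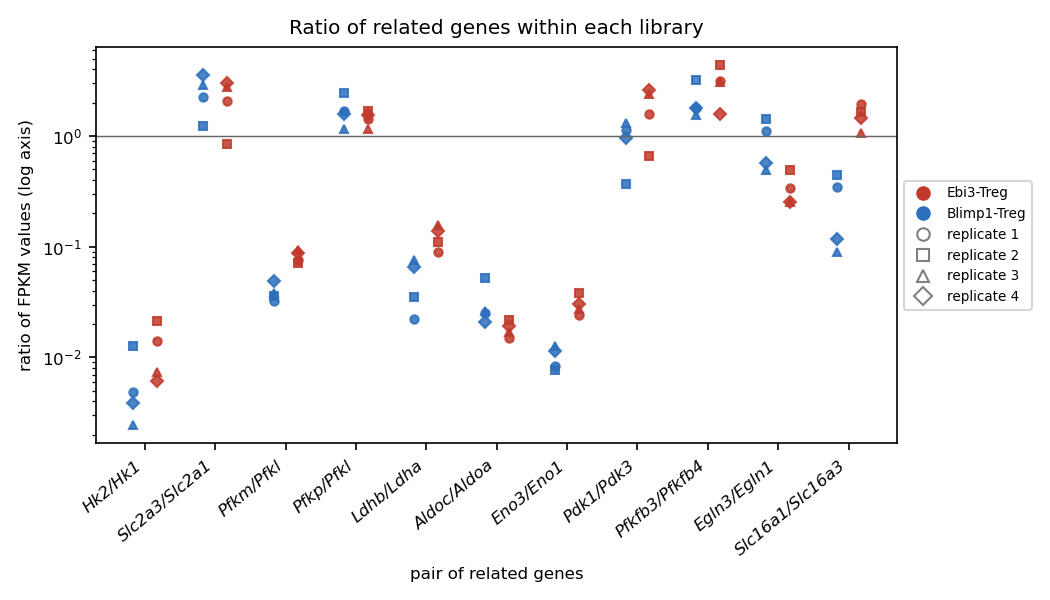
Ratio of FPKM between 2 genes of the same function in each library (y axis, log scale) for 11 pairs (x axis), with Ebi3-Treg in red and Blimp1-Treg in blue. The libraries of the 2 populations do not overlap for Pfkm to Pfkl, Ldhb to Ldha, Eno3 to Eno1 and Slc16a1 to Slc16a3, and overlap for the other 7 pairs.

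At the entry of pyruvate into mitochondria, none of 5 genes was called. Pdk1, a kinase that inhibits pyruvate dehydrogenase and a known HIF target, measured 76.6, 49.4, 101 and 115 FPKM in Ebi3-Treg 1 to 4 and 49.6, 27.8, 60.9 and 48.3 FPKM in Blimp1-Treg 1 to 4. It was higher in the Ebi3-Treg library of every number, with only Ebi3-Treg 2 inside the Blimp1-Treg range. The log2 fold change was 0.85 (SE 0.23), with an adjusted p of 0.0718 in limma, 0.0330 without Blimp1-Treg 1, 0.0192 in the second table alone and 0.00326 with the block. Pdha1, the catalytic subunit gene of pyruvate dehydrogenase that these kinases phosphorylate, was at 94.8 ± 8.09 and 75.1 ± 4.18 FPKM without overlap (log2 fold change 0.33, SE 0.12; limma adjusted p = 0.182, or 0.0282 with the block and 0.0410 in the second table alone). Pdk3, a kinase of the same family, was at 52.6 ± 15.2 and 54.3 ± 14.8 FPKM, with a 95% interval of -0.53 to 0.44. The mitochondrial pyruvate carrier subunits Mpc1 and Mpc2 ran from 4.22 to 48.9 and from 8.67 to 48.1 FPKM, with the libraries numbered 2 at the top in both populations. Their intervals, -0.91 to 1.26 and -0.43 to 1.19, reached past a 2-fold difference at their upper ends.

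Of the HIF pathway, 2 of 5 genes fell in Ebi3-Treg relative to Blimp1-Treg, against 2.93% of all genes tested. These 5 genes were listed with earlier results of these data known. Hif1a (ENSMUSG00000021109), the oxygen-regulated subunit, was at 166, 187, 218 and 217 FPKM in Ebi3-Treg 1 to 4 and at 310, 354, 389 and 462 FPKM in Blimp1-Treg 1 to 4. The groups were far apart, with all Blimp1-Treg libraries well above all Ebi3-Treg libraries. The mean was 1.92-fold lower in Ebi3-Treg (197 ± 25.4 against 379 ± 64.4 FPKM), with a log2 fold change of -0.93 (SE 0.12; limma adjusted p = 0.00477). The contrast was nearly the same in both tables, -0.91 and -0.96, and the call stayed without each library in turn. An antisense gene, Gm15283, shares 330 exon bases with Hif1a and stood at 5.31 FPKM. These are RNA levels, and the protein, whose amount oxygen sets, was not measured.

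Egln3 (ENSMUSG00000035105), the prolyl hydroxylase PHD3 and a known HIF target, measured 11.6, 10.9, 9.19 and 8.93 FPKM in Ebi3-Treg 1 to 4 and 34.7, 26.2, 16.2 and 16.6 FPKM in Blimp1-Treg 1 to 4. The groups did not overlap, and Blimp1-Treg libraries of the first table were the highest. The mean was 2.31-fold lower in Ebi3-Treg (10.1 ± 1.29 against 23.4 ± 8.82 FPKM), and the log2 fold change was -1.07 (SE 0.17; limma adjusted p = 0.0109), -1.35 in the first table and -0.79 in the second. It stayed called without each library in turn, but not without the table covariate (adjusted p = 0.0684). Egln1, the main prolyl hydroxylase PHD2, was at 31.9 ± 6.69 and 27.9 ± 6.53 FPKM, with a 95% interval of -0.29 to 0.67. The ratio of Egln3 to Egln1 was 0.254 to 0.497 in Ebi3-Treg libraries and 0.494 to 1.43 in Blimp1-Treg libraries, which touched at their edges.

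The partner subunit Arnt was at 38.2 ± 12.1 and 33.2 ± 11.3 FPKM (log2 fold change 0.21, 95% interval -0.47 to 0.89), and Vhl, which recognises hydroxylated Hif1a, at 47.1 ± 8.27 and 49.6 ± 5.09 FPKM (interval -0.40 to 0.23). Bnip3 and P4ha1, both known HIF targets outside glycolysis, were not called either. Bnip3, a mitophagy receptor, was at 30.9 ± 5.22 and 35.0 ± 11 FPKM (log2 fold change -0.14, interval -0.68 to 0.39). P4ha1, a collagen prolyl hydroxylase subunit, was at 38.2 ± 6.07 and 36.8 ± 3.55 FPKM (log2 fold change 0.04, interval -0.30 to 0.39).

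**Figure D4:**
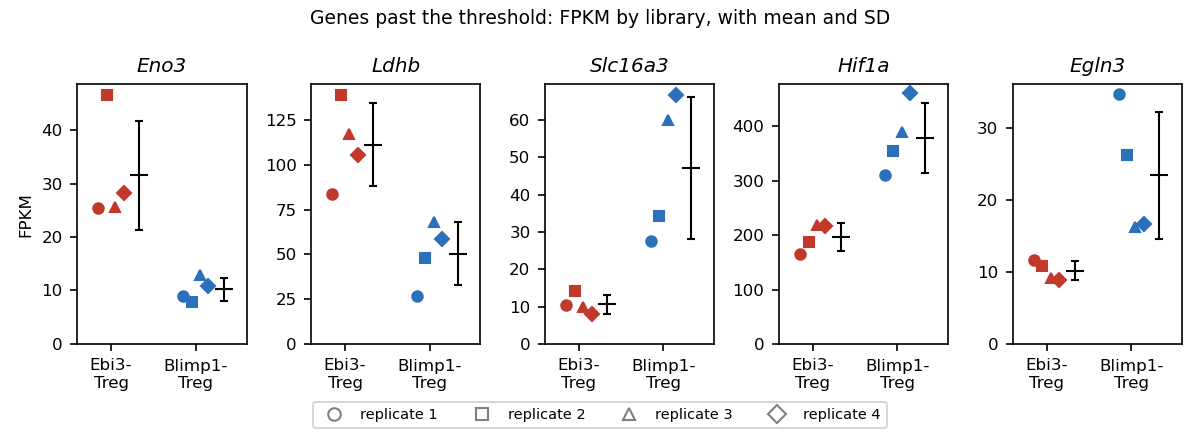
FPKM of the 5 called genes in each library, with 1 symbol per replicate number and the mean and SD of each population (n = 4) beside the points. In each panel the 4 Ebi3-Treg points lie on the opposite side from the 4 Blimp1-Treg points, above for Eno3 and Ldhb and below for Slc16a3, Hif1a and Egln3.

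Other genes of the same pathways were read from 7 lists, of which 95 genes were tested: 3 were higher in Ebi3-Treg, 4 lower and 88 not called (7.37% called, against 6.29% of all genes tested). With the replicate block 14 were higher and 7 lower (22.1%, against 22.4%), so these shares were close to those of all genes. Of 11 further glycolysis genes only the neuronal enolase Eno2 was called, higher at 15.5 ± 5.97 against 7.58 ± 4.41 FPKM (log2 fold change 1.02, SE 0.24; limma adjusted p = 0.0493). It measured 13.6, 10.1, 24.0 and 14.2 FPKM in Ebi3-Treg 1 to 4 and 3.90, 4.24, 13.2 and 8.97 FPKM in Blimp1-Treg 1 to 4, so the groups overlapped across tables. Next by unadjusted p came Pgam5 (log2 fold change 0.23), a mitochondrial phosphatase of the mutase family, Pfkfb2 (0.33) and Tigar (-0.28), a fructose bisphosphatase, with adjusted p of 0.515 to 0.540. Of 7 further carriers only Slc16a6 was called, a member of the monocarboxylate transporter family. Slc16a6 was lower at 16.3 ± 5.85 against 35.9 ± 10.8 FPKM, without overlap (log2 fold change -1.11, SE 0.15; limma adjusted p = 0.00605). Slc2a6, a glucose transporter family gene, measured 9.92, 5.72, 5.22 and 3.20 FPKM in Ebi3-Treg 1 to 4 and 1.46, 1.62, 2.32 and 2.39 FPKM in Blimp1-Treg 1 to 4. The groups did not overlap, and the log2 fold change of 1.18 (SE 0.30) had an adjusted p of 0.0588 in limma, or 0.0272 with the block. Slc16a13 (log2 fold change 0.63; limma adjusted p = 0.139, or 0.0139 with the block) and Slc2a8 (0.26) were not called either. Bsg, the chaperone that brings MCT1 and MCT4 to the cell surface, was at 219 ± 44.5 and 217 ± 33.2 FPKM and not called.

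None of 9 further genes of pyruvate dehydrogenase and its kinases and none of 10 pentose phosphate genes was called. The kinase Pdk2 was at 36.3 ± 9.17 and 20.7 ± 9.47 FPKM (log2 fold change 0.86, SE 0.24; limma adjusted p = 0.0830, or 0.00991 with the block). The complex subunits Pdhb and Dlat and the phosphatase regulator Pdpr had log2 fold changes of 0.13, 0.05 and 0.18. Of the pentose phosphate genes, Prps1, which makes the ribose precursor of nucleotides, was at 81.1 ± 24.1 and 55.2 ± 17.2 FPKM (log2 fold change 0.55; limma adjusted p = 0.319, or 0.00292 with the block). Pgls, Taldo1 and Rpe of that pathway had log2 fold changes of 0.33, -0.25 and -0.16.

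In the citrate cycle 2 of 19 genes (10.5%) were higher in Ebi3-Treg and none lower, against 3.37% and 2.93% of all genes tested. They were Idh2, mitochondrial isocitrate dehydrogenase, at 60.2 ± 5.49 against 35.3 ± 6.35 FPKM (log2 fold change 0.77, SE 0.14; limma adjusted p = 0.0154), and Suclg2, a succinyl-CoA ligase subunit, at 43.6 ± 3.45 against 29.5 ± 0.871 FPKM (0.54, SE 0.12; adjusted p = 0.0341). Suclg1, its partner subunit (log2 fold change 0.55; limma adjusted p = 0.161), and Sdha of succinate dehydrogenase (0.28; adjusted p = 0.212) were called higher with the block (0.00334 and 0.0332), and Suclg1 also in the second table alone (0.0134). With the block 4 of the 19 were higher and 1 lower (26.3%), against 22.4% of all genes tested (13.5% higher, 8.94% lower). The lower gene was the malate dehydrogenase Mdh1 (log2 fold change -0.29, limma adjusted p = 0.769, or 0.0354 with the block), chosen after its values were seen. Of 13 further HIF pathway genes 2 were lower in Ebi3-Treg and none higher (15.4%), against 6.29% of all genes tested (2.93% lower). Arnt2, a paralog of Arnt, was at 2.32 ± 1.44 against 16.1 ± 8.43 FPKM (log2 fold change -2.28, SE 0.48; limma adjusted p = 0.0296), and Arntl, a relative that drives the circadian clock, at 29.1 ± 2.42 against 42.0 ± 2.62 FPKM (-0.52, SE 0.12; adjusted p = 0.0451). Siah2, a ubiquitin ligase that targets prolyl hydroxylases, was at 83.7 ± 20.3 and 56.9 ± 14.8 FPKM (log2 fold change 0.55; limma adjusted p = 0.214, or 0.00795 with the block), and Cited2, an inhibitor of HIF-1 activity, had a log2 fold change of -0.24. Of 26 further hypoxia response genes 1 was called (3.85%, against 6.29% of all genes tested). Anxa2, a membrane-binding protein, was lower at 30.8 ± 7.78 against 115 ± 20.2 FPKM (log2 fold change -1.88, SE 0.22; limma adjusted p = 0.00306). Vegfa, the vascular growth factor and a classical HIF target, was low at 2.59 ± 1.98 and 0.779 ± 0.312 FPKM (log2 fold change 0.86, SE 0.26; adjusted p = 0.103). Car12, a carbonic anhydrase (log2 fold change 0.96), and Plod2, a collagen lysyl hydroxylase (0.65), both known HIF targets, had adjusted p of 0.104 and 0.146 in limma, and of 0.0166 and 0.0217 with the block. With the block 3 of the 26 were higher and 3 lower (23.1%), close to the 22.4% of all genes tested. Beside Anxa2 the lower genes were Mxi1, a Myc antagonist (log2 fold change -0.55, limma adjusted p = 0.0229), and Ppp1r3b, a glycogen regulator (-0.77, adjusted p = 0.0315). Mxi1 and Ppp1r3b were chosen after their values were seen.

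Markers of proliferation moved with the populations. Of 15 cell cycle markers 9 were lower in Ebi3-Treg (60%, against 2.93% of all genes tested) and none higher, with a median log2 fold change of -1.43. Their summed level was 406 to 788 FPKM in Ebi3-Treg and 711 to 1222 FPKM in Blimp1-Treg, and Mki67 was at 2.12 ± 0.838 and 7.37 ± 1.92 FPKM (limma adjusted p = 0.0160). None of the 15 was at 0 in all libraries. Their part in the differences of Hif1a, Slc16a3 and Egln3 was not tested. Lists of B cell (9 genes, 5 tested), myeloid (10, 3 tested), CD8 T and NK (7, 4 tested) and stromal (7, 2 tested) markers had no called gene. With the replicate block 2 B cell markers were higher in Ebi3-Treg (40% of those tested). Of the myeloid markers 1 was higher and 1 lower (66.7%), 1 CD8 T and NK marker was lower (25%), and 1 stromal marker was higher (50%). The share of all genes tested was 22.4%. The summed levels of these lists, in the same order, ranged over 49.6 to 266, 73.9 to 262, 11.9 to 67.7 and 30.6 to 65.1 FPKM in Ebi3-Treg. In Blimp1-Treg they ranged over 32.9 to 183, 74.4 to 281, 18.6 to 44.1 and 16.7 to 34.7 FPKM. Myeloid sums were 221 to 281 FPKM in the libraries of the first table and 73.9 to 90.5 FPKM in those of the second. No gene of these lists was at 0 in all 8 libraries, and their part in the results was not tested. Without both libraries numbered 1, and again without both numbered 2, the called genes of the set were 6 higher and 5 lower. Calls over all genes rose as well, from 772 to 1970 (16.1%) and 1962 (16%) of 12273. The blocked fit without those libraries called 8 and 10 genes of the set, against 13.1% and 13.6% of all genes tested.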

How the data were processed

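RNA of 8 libraries (4 Ebi3-Treg, 4 Blimp1-Treg) was measured. Per the labels' protocols, sort purity was above 90%, and the SMART-Seq v4 Ultra Low Input kit was given 10 pg to 10 ng of total RNA. It amplifies cDNA, so reads are not independent molecules. The authors' deposited values are FPKM, in 2 tables. The tools listed in the submitters' processing notes are HTSeq 0.6.1, TopHat2 2.0.12 and Bowtie2 2.2.3, with the build mm9. The annotation, strand setting and counting mode are not known here. Because of mm9, GENCODE and RefSeq (GRCm38) were used for gene names, exon lengths and overlaps and promoter sequences, never to place the files in the genome. Features that lacked an Ensembl identifier (640 and 612) were dropped, and 46488 genes had a symbol. Depth was estimated as the total at which low FPKM values, multiplied by reference exon length, came out as whole reads. No count test was run on FPKM.

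The model was limma 3.58.1 (R 4.3.3) on log2(FPKM + 1), with terms for population and table, a variance trend and two-sided tests, and the script was tested on simulated data. The pseudocount of 1 understates changes of low genes. Alternatives were another pseudocount, filter, scaling or variance model, no table term, a replicate block, and leaving out libraries. The blocked fits without both libraries numbered 1 or 2 were chosen after seeing the data. Deviations from the population mean correlated between same-numbered libraries (across genes, r = 0.62, 0.89, 0.53 and 0.54 for numbers 1 to 4), so the numbers were treated as pairs. This pairing comes from the data and not from the labels, and in the second table crossed numbers reached 0.56 and 0.61. Copies of at least 95% identity over 200 bases were sought with BLAST+ 2.17.0. The 35 genes and all lists were chosen with earlier results of these data known. The text names all 35, the 4 tested genes with the smallest unadjusted p of each pathway list, and Foxp3, Ebi3, Prdm1 and Mki67. Bsg, Mdh1, Mxi1, Ppp1r3b, Pitrm1, Gm15283, Epas1 and Hif3a were chosen after their values were seen.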

Additional observations from a re-analysis of the deposited data

Results flagged for a closer look

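In 7 of the 70 groups of 4 libraries examined (35 genes in 2 populations), a single library stood apart by Dixon's criterion at the 95% level, which chance alone exceeds in about 1 in 20 groups. All 7 were libraries numbered 2, and values are in FPKM. Ebi3-Treg 2 was the lowest for Hk1, at 136 against 246 to 266 in the other Ebi3-Treg libraries. It was the lowest for Pfkl, at 75.1 where the others lay near 106. It was the lowest for Arnt, at 20.2 against 42.6 to 46.8, and for Egln1, at 21.9 against 34.5 to 36.1. Ebi3-Treg 2 was the highest for Eno3, at 46.6 against 25.5 to 28.3, and for Slc2a1, at 52.4 against 46.6 to 46.7. Blimp1-Treg 2 was the lowest for Pfkfb3, at 7.23 against 12.1 to 12.9. For P4ha1 the contrast had opposite directions in the 2 tables, with all Ebi3-Treg libraries below all Blimp1-Treg libraries in the first (log2 fold change -0.19) and above them in the second (0.28). That difference of 0.4636 did not pass (limma, adjusted p = 1).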

How the results depend on the processing

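Against the 772 of all genes, 5 genes of the set and 7 pathway list genes called, the counts were 420 of 40415, 4 and 2 with no filter on low values, and 441, 3 and 2 without the table term. With the replicate block they were 2752, 12 and 21. Without both libraries numbered 1 they were 1970, 11 and 12, without both numbered 2 they were 1962, 11 and 14, and with the block as well 1606, 8 and 11 (number 1 left out) and 1663, 10 and 14 (number 2 left out). Leaving out each library in turn gave 341 to 771, 4 to 5 and 2 to 4. In the first table alone limma called 0 genes of the set (5 at an unadjusted p under 0.05) and 0 of all genes, and with its replicate block 11 and 2855 (23.3% of all genes). In the second table alone 10 were called, with 1347 of all genes. These became 0 and 0 with no filter (15 of the set at an unadjusted p under 0.05), and 4 and 764 (6.23%) with no variance trend. Without each library in turn they were 1 to 2 and 143 to 485, with the lone sample of a population assumed to vary like the other. No call of a gene of the set changed direction under any setting tried. Ldhb was not called with no filter (adjusted p = 0.0995), without the table term (0.0749), with libraries shifted to the same median (0.10) or without any single library, and Egln3 was not called without the table term. Pfkm was also called with no variance trend (limma adjusted p = 0.0430), and Pfkm and Pdk1 with libraries shifted to the same median (0.0162 and 0.0342). Without both libraries numbered 1, Aldoc and Tpi1 were called lower, and without both numbered 2, Pkm and Ldha. Where a cause is not given by fewer samples or genes, it was not tested. Depth limits Hk2 most, the lowest gene of the set.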

Other observations

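The HIF alpha subunits other than Hif1a were low. Epas1, which encodes HIF-2 alpha, ran from 0.265 to 1.88 FPKM over the 8 libraries, with 7 of them at most 0.506 FPKM. Hif3a ran from 0.0869 to 2.95 FPKM, with Ebi3-Treg at 1.6 ± 1.17 and Blimp1-Treg at 0.433 ± 0.262 FPKM (SD, n = 4), and the groups overlapped. Neither passed the filter on low values, so no test was made.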
